A study of Mus musculus with 19 samples.

Results

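Interleukin-1 (IL-1) family and tumour necrosis factor (TNF) cytokines, 2 of their receptors, interleukin-6 and 2 feedback inhibitors of nuclear factor kappa B (NF-kappa B) were followed in cells sorted from the mouse hippocampus. The 10 genes are Il1a, Il1b, Il18, Il33, Il6, Tnf, Tnfrsf1a, Il1r1, Nfkbia and Tnfaip3. They were chosen by name, with earlier results of these data known. Each stood on a single entry of the deposited table, and all 10 were found among its 60567 listed genes. The 19 samples were RNAseq libraries of male C57bl6 mice aged 9 months. Green fluorescent protein (GFP) was delivered to the CA1 region by an adeno-associated virus (AAV2, serotype 9) under gfaABC1D, a synthetic promoter derived from that of Gfap and used to direct expression to astrocytes. GFP+ astrocytes came from wild type mice given AAV-GFP (WT-GFP, n = 7), from APP/PS1dE9 mice given AAV-GFP (APP-GFP, n = 4) and from APP/PS1dE9 mice given AAV-SOCS3 with AAV-GFP at an equal total viral load (APP-SOCS3, n = 5). APP/PS1dE9 mice carry familial Alzheimer's disease transgenes and accumulate amyloid plaques. The study describes the GFP- cells of WT-GFP mice (n = 3) as microglia, neurons, oligodendrocyte precursor cells and astrocytes without virus. Markers of endothelial cells, mural cells of vessels and neutrophils were read in them as well. On mm10 the genes lie at chr2:129299610-129309973 (Il1a), chr2:129364577-129371142 (Il1b), chr9:50554850-50581840 (Il18), chr19:29925112-29960715 (Il33), chr5:30013114-30019981 (Il6), chr17:35199367-35202008 (Tnf), chr6:125349723-125362484 (Tnfrsf1a), chr1:40225080-40316198 (Il1r1), chr12:55489409-55492647 (Nfkbia) and chr10:19000913-19015410 (Tnfaip3). All mice of these groups received a virus, and no GFP- cells of APP/PS1dE9 mice were analysed here.

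IL-1 alpha and IL-1 beta bind the receptor IL1R1, and TNF binds TNFR1, the product of Tnfrsf1a. Both receptors lead to the kinase complex that frees NF-kappa B from I kappa B alpha (Nfkbia), after which NF-kappa B enters the nucleus and switches on inflammatory genes. Nfkbia and Tnfaip3 (A20, a ubiquitin-editing enzyme) are themselves NF-kappa B targets, so their products close the loop by retaining NF-kappa B in the cytoplasm or by dismantling the receptor complexes. In the brain, microglia are a well known source of IL-1 and TNF, and both cytokines can drive astrocytes into a reactive state. SOCS3 blocks another pathway, from gp130 cytokine receptors through JAK kinases to STAT3.

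Levels are normalised read counts, that is reads per gene divided by a factor for the sample. They are not corrected for gene length, so a gene was compared between samples and not with another gene. Reads on genes numbered 19331876 to 32621917 per sample. In 4 GFP+ libraries, WT-GFP replicates 1, 2 and 3 and APP-GFP replicate 2, under 20000 genes were detected, against 21602 to 26757 in the other 12. Those 4 libraries had 2 to 5 of the 10 genes at 0, and the other 12 had 0 to 3. Of 15 astrocyte markers, 15 were higher in GFP+ samples of WT-GFP mice than in their GFP- cells. Markers of other cells were still present in GFP+ astrocytes. The median microglial marker stood at 6.4% to 24.4% of its GFP- mean in WT-GFP, at 8.63% to 48.5% in APP-GFP and at 3.24% to 9.19% in APP-SOCS3 samples. The neutrophil markers S100a8 and S100a9 were at 0 in 11 and 14 of the 16 GFP+ samples. In GFP- samples the summed level of neutrophil markers was 1606 to 4311, that of endothelial markers 195577 to 308904 and that of mural cell markers 84886 to 110755. In such bulk samples, fewer cells of a type and less RNA per cell cannot be told apart.

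Among the ligands, Il18 and Il33 stood apart from the rest by their higher levels in GFP+ astrocytes. Il18 encodes a cytokine that is made as an inactive precursor and cut by caspase-1. Its normalised read count was 6421 to 10610 in WT-GFP (median 7289). It was 10549, 6674, 7232 and 8551 in APP-GFP replicates 1 to 4, and 9233, 9473, 8984, 8148 and 9500 in APP-SOCS3 replicates 1 to 5. In GFP- cells it was 1234, 1177 and 765. Every GFP+ sample was therefore above every GFP- sample. In WT-GFP mice the log2 fold change of GFP+ over GFP- was 2.98 (with a standard error of 0.23 and adjusted p = 7.27e-06, exact permutation p = 0.0167, the smallest that 7 against 3 samples allow). The mean in APP-SOCS3 was 9068 ± 555 (SD, n = 5). It overlaps Bco2 and 4507 bases of Tex12, both on the other strand, and the counting is not stated to use strand, so reads from the shared bases cannot be assigned to a gene. Bco2 had 571 to 1824 in WT-GFP and 407 to 558 in GFP- cells, and Tex12 had 5.68 to 95.3 and 7.95 to 31.6.

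Il33, an alarmin held in the nucleus and released from damaged cells, had levels of 386 to 2722 in WT-GFP (median 1345). APP-GFP replicates had 1644, 724, 1157 and 1777. APP-SOCS3 replicates had 800, 2887, 676, 920 and 947. GFP- samples had 514, 114 and 106, so that the highest GFP- sample overlapped WT-GFP replicate 2 alone. WT-GFP astrocytes exceeded GFP- cells by 2.87 on the log2 scale (with a standard error of 0.65 and adjusted p = 0.007, exact permutation p = 0.0333).

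The receptors of these 2 ligands were nearly absent from the sorted astrocytes. Il18r1, the ligand-binding chain of the IL-18 receptor, had no read in 16 of 16 GFP+ samples and 21.2 to 28.7 in GFP- cells. Its partner Il18rap was at 0 in 15 of 16 GFP+ samples, with 4.51 in the remaining sample. Il1rl1, the IL-33 receptor ST2, was likewise at 0 in 15 of 16, and at 30.4 in the other one. Its levels in GFP- cells were low too, from 0 to 70.8. Il18bp, a secreted protein that neutralises IL-18, was present in 15 of 16 GFP+ samples, at a mean of 73.5 ± 45.1 (SD, n = 7) in WT-GFP beside 115 ± 16.9 (SD, n = 3) in the GFP- group.

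**Figure D1:**
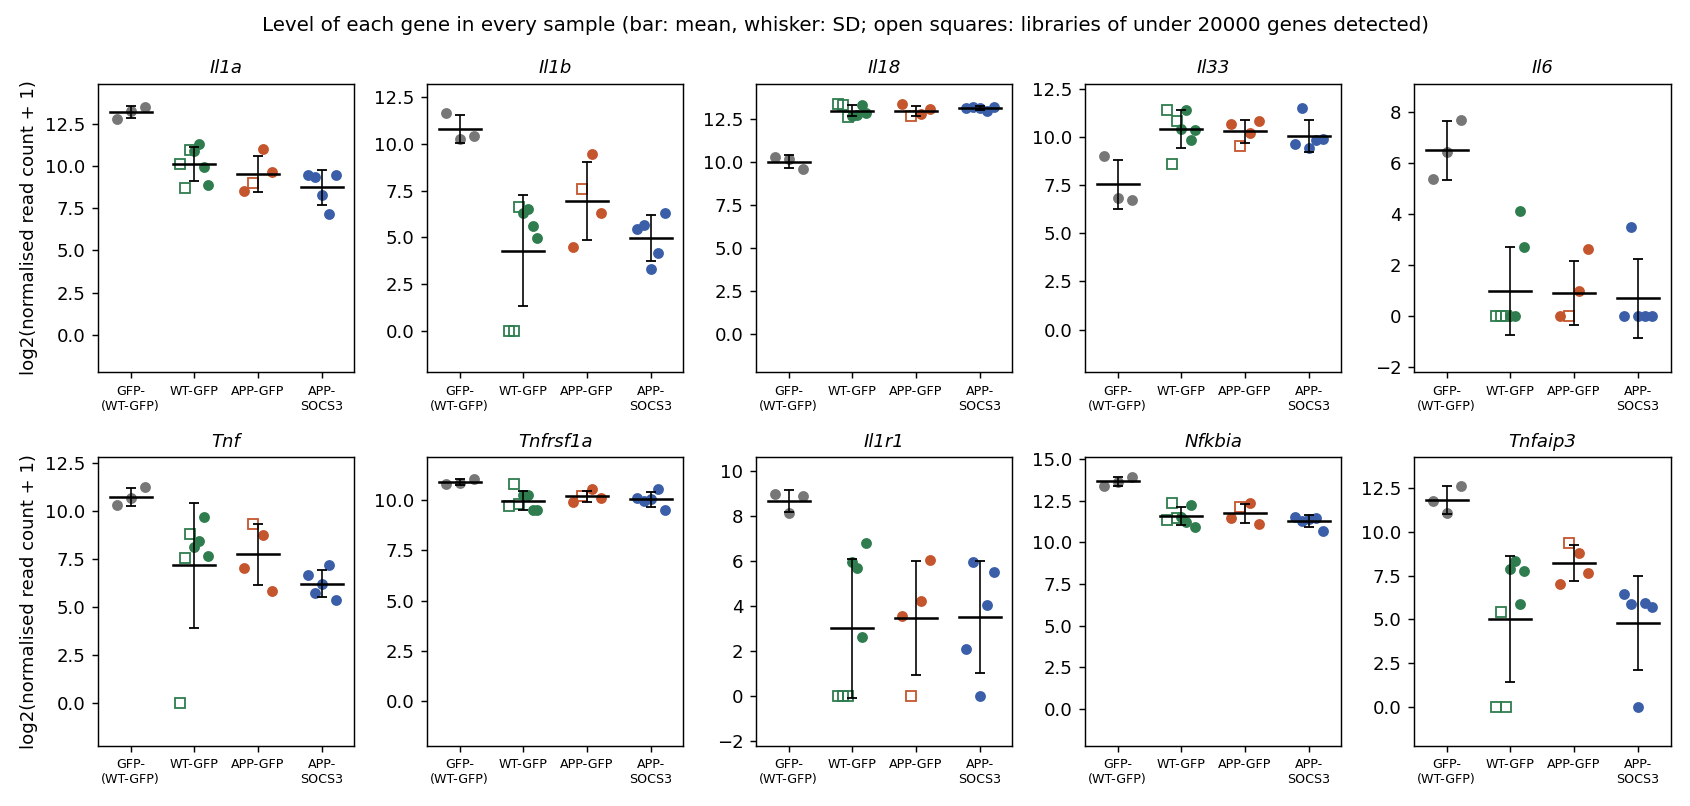
Level of the 10 genes in each of the 19 samples, as log2(normalised read count + 1), by group, with the mean and SD of the log2 values. Il18 and Il33 are higher in the 3 groups of GFP+ astrocytes than in GFP- cells, the means of the other 8 genes are lower, and the values at 0 lie mainly in libraries with under 20000 genes detected (open squares).

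Il1a and Il1b encode the 2 agonists of IL1R1. Il1a was read in every sample, at 409 to 2515 in WT-GFP (median 1121), at 362, 503, 2014 and 808 in APP-GFP, and at 707, 636, 303, 140 and 703 in APP-SOCS3. GFP- cells held 7041, 9764 and 11537. No GFP+ sample reached the GFP- cells, and the log2 fold change was -3.07 (with a standard error of 0.55 and adjusted p = 0.0017) in WT-GFP. Il1a overlaps the antisense gene Gm14023 over 8217 bases. Gm14023 had 53 to 213 in WT-GFP and 894 to 1206 in GFP- cells, and reads from the shared bases cannot be told apart without strand.

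Il1b was scarcer. WT-GFP samples ranged from 0 to 98.9 (median 48.7), APP-GFP replicates had 21.7, 189, 708 and 79.3, and APP-SOCS3 replicates had 43.1, 49.3, 9, 16.7 and 79.1. GFP- cells had 3210, 1251 and 1400. Compared with GFP- cells, Il1b in WT-GFP astrocytes had a log2 fold change of -6.49 (with a standard error of 1.62 and adjusted p = 0.0114), and it was -4.93 without the 3 WT-GFP libraries with few genes.

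Tnf had levels of 0 to 816 in WT-GFP (median 282). APP-GFP replicates had 132, 646, 427 and 55.8, and APP-SOCS3 replicates had 102, 52.1, 72, 143 and 40.4. GFP- cells had 1259, 1614 and 2386, above every GFP+ sample. For WT-GFP astrocytes the log2 fold change was -3.55 (standard error 1.69, p = 0.0595, adjusted p = 0.131, exact permutation p = 0.0167) and did not pass the threshold. Tnf was called without WT-GFP replicate 1, the sample at 0 (-2.35), without WT-GFP replicate 6, the highest (-3.96), and without the 3 WT-GFP libraries with few genes (-2.25). It was also called by DESeq2 (-2.39), with a pseudocount of 10 (-3.04) and with all 19 samples in one fit (-3.55), but not by edgeR (-2.16).

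Il6, a gp130 cytokine and a classical NF-kappa B target, was close to absent from astrocytes. It was at 0 in 5 of 7 WT-GFP samples, with 5.64 and 16.6 in the others, in 2 of 4 APP-GFP samples, with 0.989 and 5.23 in the others, and in 4 of 5 APP-SOCS3 samples, with 10.2 in the other. GFP- cells had 40.3, 87 and 208. Il6 had a log2 fold change of -5.53 in WT-GFP astrocytes (with a standard error of 1.10 and adjusted p = 0.00324).

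The 2 receptors differed from each other in their spread. Tnfrsf1a was present in every sample, at 717 to 1771 in WT-GFP (median 880). APP-GFP had 945, 1172, 1484 and 1111, APP-SOCS3 had 1099, 1004, 1046, 1473 and 739, and GFP- cells had 1789, 1827 and 2107. WT-GFP astrocytes differed from GFP- cells by a log2 fold change of -0.92 (with a standard error of 0.29 and adjusted p = 0.034), smaller in size than that of the median gene tested, -1.31. With edgeR it was -0.58 and not called, beside a median gene at -0.37. Il1r1 was at 0 in 3 of 7 WT-GFP samples and reached 112 (median 5.18). It was at 10.9, 0, 17.8 and 66.3 in APP-GFP, at 3.31, 62.3, 0, 15.7 and 44.8 in APP-SOCS3, and at 505, 278 and 482 in GFP- cells. In WT-GFP astrocytes Il1r1 had a log2 fold change of -5.66 (with a standard error of 1.73 and adjusted p = 0.0285), and -3.40 without the 3 WT-GFP libraries with few genes. Il1rap, the co-receptor that IL1R1 needs to signal, had 0 to 133 in WT-GFP and 370 to 476 in GFP- cells.

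The 2 feedback inhibitors were both lower in GFP+ astrocytes. Nfkbia was read in every sample, at 1975 to 5239 in WT-GFP (median 2778), at 2763, 4389, 5178 and 2166 in APP-GFP, and at 2970, 2456, 2685, 2874 and 1659 in APP-SOCS3. GFP- cells had 10867, 12584.5 and 15646. This gave a log2 fold change of -2.06 for WT-GFP astrocytes (with a standard error of 0.30 and adjusted p = 0.000424). Tnfaip3 ranged from 0 to 318 in WT-GFP (median 57), was 131, 644, 441 and 203 in APP-GFP and 86.1, 57.7, 0, 60.8 and 51.9 in APP-SOCS3. GFP- cells had 3491, 2116 and 6228. For Tnfaip3 the log2 fold change was -6.77 (with a standard error of 1.89 and adjusted p = 0.0195), and -4.35 without the 3 WT-GFP libraries with few genes.

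Of the 10 genes 3 carry a kappa B-like run of letters beside their start site, namely the 2 feedback inhibitors and Il6. The letters were 3 G, any 2 bases, 3 T and 2 C, in this order, and were searched on both strands of RefSeq promoter windows of 300 bases (250 before the start and 50 after it, GRCm38.p6), with 13 windows for the 10 genes. They were found in 3 of the 13 windows, each of another gene, and in 1.63% of all 32851 windows. The letters searched were chosen after these promoters were seen, so these shares are a description and no test. The 200 bases before the start are shown for these 3 genes, 5′ to 3′ on the strand of the gene, because they hold the matches. Capitals mark the match, which lies on the opposite strand in Nfkbia and Tnfaip3.
Nfkbia, chr12:55492648-55492847, minus strand: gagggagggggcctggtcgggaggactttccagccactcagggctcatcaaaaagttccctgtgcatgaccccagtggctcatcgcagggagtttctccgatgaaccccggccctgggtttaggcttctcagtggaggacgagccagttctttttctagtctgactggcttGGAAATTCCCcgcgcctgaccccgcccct
Tnfaip3, chr10:19015411-19015610, minus strand: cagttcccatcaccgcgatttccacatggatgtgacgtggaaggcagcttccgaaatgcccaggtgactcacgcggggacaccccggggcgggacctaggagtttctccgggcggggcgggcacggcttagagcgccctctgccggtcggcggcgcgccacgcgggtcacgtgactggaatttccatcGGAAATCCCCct
Il6, chr5:30012914-30013113, plus strand: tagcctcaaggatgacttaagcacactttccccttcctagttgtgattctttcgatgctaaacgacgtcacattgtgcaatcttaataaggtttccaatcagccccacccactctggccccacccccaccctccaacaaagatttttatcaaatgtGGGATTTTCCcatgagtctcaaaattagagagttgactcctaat
The match begins at -29 in Nfkbia, -12 in Tnfaip3 and -44 in Il6, counted from the first base after the sequence. The letters TTCNNNGAA, a STAT-like run, were found in Tnfrsf1a alone of the 10 genes, at -244, and in 8.3% of all windows. A match is a description of letters, and no match says nothing of a factor.

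Against GFP- cells, 9 of the 10 genes were thus called in WT-GFP astrocytes by limma, which required p up to 0.05 without adjustment and a change of 1.5 times or more, where 42.8% of the 26709 genes tested were called. Il18 and Il33 were higher, 7 were lower, and Tnf was not called. The groups did not overlap for 9 of 10 (34.8% of all genes), and 9 of 10 had an adjusted p under 0.05 (31.9% of all genes). The median log2 fold change of the 10 genes was -3.31.

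The levels of the 8 genes that were lower in astrocytes were next set beside the other cell markers, as a percentage of the GFP- mean. Tnfrsf1a stood at 37.6% to 92.9% in WT-GFP samples and was above the median microglial marker of the same sample in 16 of 16 GFP+ samples. Nfkbia stood at 15.2% to 40.2%, and was above it in 12 of 16. Il1a, at 4.33% to 26.6%, was above it in 4 of 16 and Tnf, at 0% to 46.5%, in 5 of 16. Il1b was above it in 1 of 16, Il6 in 1 of 16, Il1r1 in 4 of 16 and Tnfaip3 in 0 of 16. Il18 (606% to 1002%) and Il33 (158% to 1112%) were above the median marker of each of the 8 lists of other cell types in 16 of 16. Tnfrsf1a was above all 8 in 10 of 16 and Nfkbia in 5 of 16. Il1r1 was so in 3, Tnf in 2, Il1a and Il1b in 1 each, and Il6 and Tnfaip3 in 0. These counts depend on the oligodendrocyte list, whose median marker reached 99.8% in WT-GFP and 143% in APP-GFP samples. Its summed level was 5065 to 7635 in WT-GFP and 7087 to 8701 in GFP- samples, which overlap. Wherever Tnfrsf1a was not above all 8, this list alone was above it. The part of other cells in these levels was not tested.

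**Figure D2:**
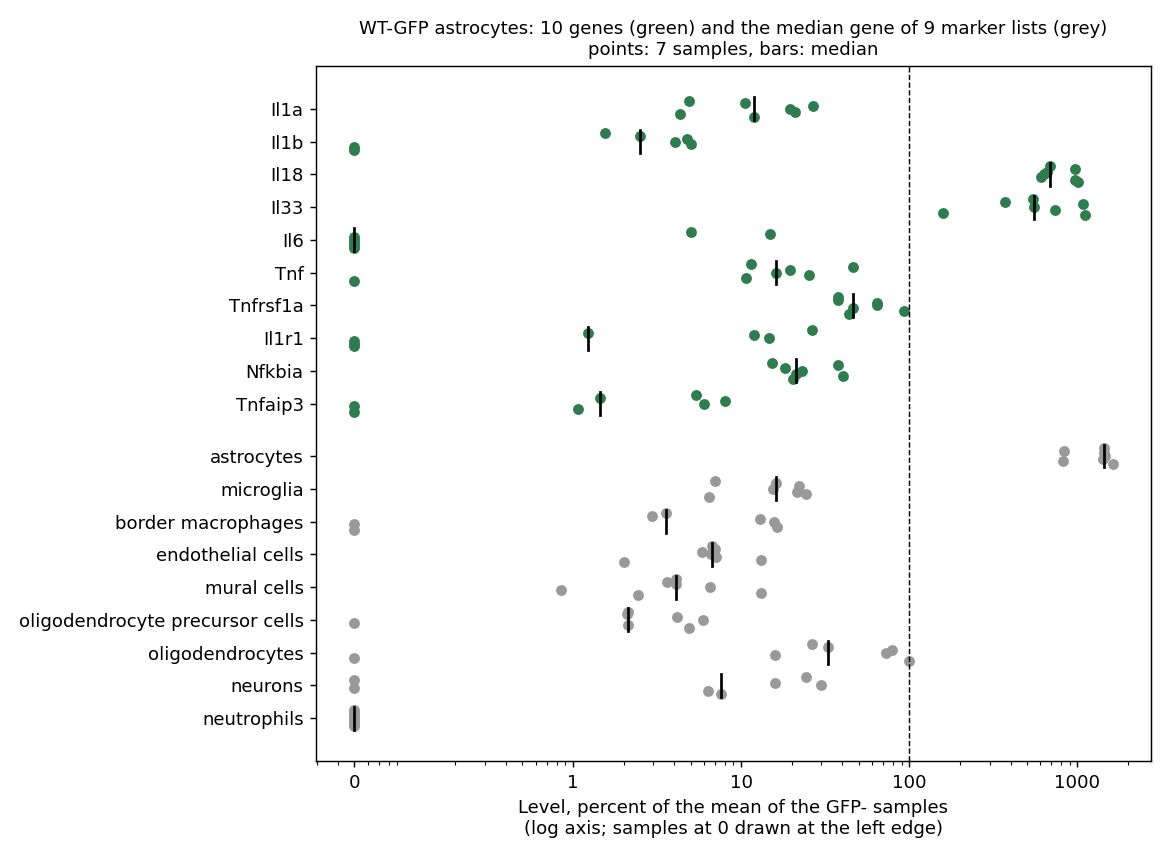
Level in each of the 7 WT-GFP astrocyte samples as a percentage of the mean of the 3 GFP- samples, on a log axis, for the 10 genes (green) and for the median gene of 9 cell type marker lists (grey), with medians as bars. Il18 and Il33 lie to the right of 100% with the astrocyte markers, and Tnfrsf1a lies between them and the microglial markers. Nfkbia overlaps the microglial markers with a higher median, and the medians of Il1b, Il6, Il1r1 and Tnfaip3 lie to the left of the microglial markers.

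Of the other genes of the pathways, 30 of 58 tested were called lower in astrocytes and 1 higher, where 33.5% of all genes were called lower. These lists, too, were chosen with earlier results of these data known, so their shares here and below are a description. Of 13 IL-1 family partners, 9 were lower and 4 were not called, with a median log2 fold change of -3.86 beside -1.31 for all genes. Nlrp3, the sensor of the inflammasome, had a mean of 146 ± 157 (SD, n = 7) in WT-GFP astrocytes, against 1204 ± 493 (SD, n = 3) in the GFP- group, and differed by -4.21 on the log2 scale. Of 9 TNF pathway partners tested, 4 were lower (median -3.03). Tnfrsf1b, the second TNF receptor, had a log2 fold change of -7.60 (adjusted p = 0.00686). Of 16 genes of NF-kappa B activation, 6 were lower (median -1.37, with both the share and the median close to those of all genes), among them the subunits Rela (-1.71), Relb (-1.85), Nfkb1 (-1.74) and Rel (-6.62). The kinase gene Chuk differed by -0.07 (standard error 0.53).

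Of 12 further feedback inhibitors of the pathway, 7 were lower and 5 were not called. Nfkbiz, an inducible nuclear I kappa B protein, had 310 to 1245 in WT-GFP and 4338 to 9288 in GFP- cells, and differed by -3.42 on the log2 scale (adjusted p = 0.000162). Irak3, a brake on IL-1 receptor and Toll-like receptor kinases, had a log2 fold change of -5.84. Otulin (0.24, standard error 0.35) and Nfkbib (0.09, standard error 0.30) were not called. Among 8 target genes, Ptgs2 (-9.43), Cxcl1 (-8.13), Icam1 (-3.61) and Ccl2 (-3.75) were lower. Sod2, the mitochondrial superoxide dismutase, was higher in astrocytes, at 6336 ± 1549 (SD, n = 7) against 2926 ± 400.2 (SD, n = 3), a log2 fold change of 1.08 (adjusted p = 0.00456). Immediate early genes such as Fos and Jun, which rise within minutes of stimulation or handling of cells, were lower in GFP+ astrocytes for 10 of 10 genes, and their part in these differences was not tested.

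**Figure D3:**
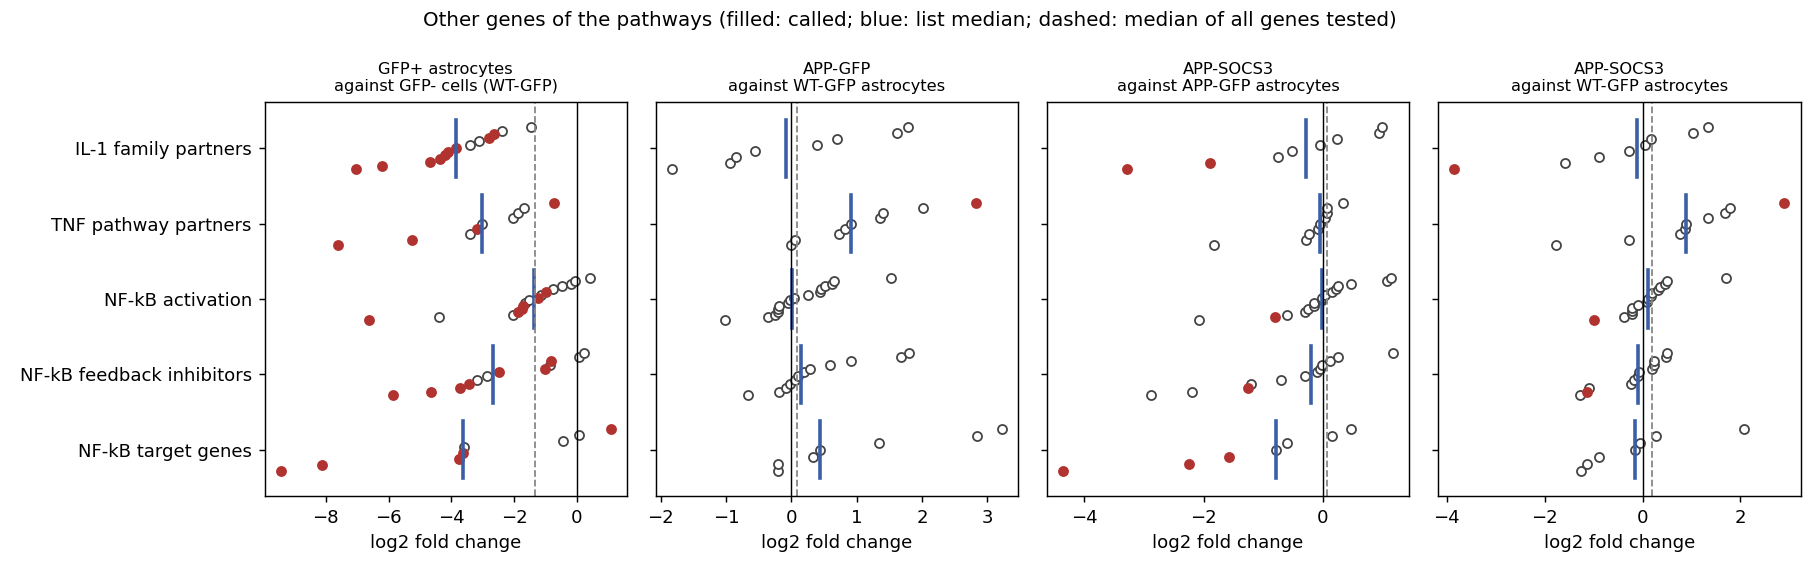
Log2 fold changes of 59 other genes of the IL-1, TNF and NF-kappa B pathways in the 4 comparisons (points, filled where called), with the median of each list (blue bar) and of all genes tested (dashed line). Against GFP- cells 30 of 58 genes tested were lower and 1 was higher (33.5% of all genes were lower), and APP-SOCS3 against APP-GFP astrocytes gave 7 lower of 52 (3.37% of all genes).

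The APP/PS1dE9 genotype was tested by comparing APP-GFP to WT-GFP astrocytes. None of the 9 genes tested was called by limma, where 2.23% of 22969 genes were, and the groups overlapped for each of the 9 (0.313% of all genes did not overlap). At an unadjusted p under 0.05, without the fold threshold, the count was 0 of 9 as well. By edgeR and by DESeq2 none of the 9 was called either. Il6 was too low to be tested in any comparison between GFP+ groups, and its exact permutation p was 0.976, 0.81 and 0.955.

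The largest differences were those of Tnfaip3 and Il1b, and they did not pass the threshold. Tnfaip3 had a mean of 355 ± 234 (SD, n = 4) in APP-GFP samples against 124 ± 130 (SD, n = 7) in WT-GFP, a log2 fold change of 3.18 (95% interval -0.38 to 6.73, p = 0.0761, exact permutation p = 0.0788). Il1b had 250 ± 314 (SD, n = 4) and 49.9 ± 41.6 (SD, n = 7), a log2 fold change of 2.67 (95% interval -0.71 to 6.04, exact permutation p = 0.158). For Tnfaip3 the value depended on the libraries with few genes, since without them the log2 fold change was 0.38, and for Il1b it was then 0.90, neither of them called. Without WT-GFP replicate 4 Tnfaip3 was called (3.65), and likewise without WT-GFP replicate 5 (3.72).

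For the abundant genes the intervals were narrow. Il18 differed by -0.01 on the log2 scale (95% interval -0.42 to 0.41), Tnfrsf1a by 0.21 (-0.39 to 0.81) and Nfkbia by 0.15 (-0.52 to 0.82). Il33 differed by -0.11 (-1.14 to 0.93) and Il1a by -0.57 (-1.81 to 0.66). Wider intervals surrounded Tnf (0.56, -2.69 to 3.82) and Il1r1 (0.45, -3.28 to 4.18), which do not leave out large changes in either direction. The sign of both was not stable. Mean levels were lower in APP-GFP, at 315 against 325 for Tnf and 23.7 against 32.7 for Il1r1, and the log2 fold changes were -1.27 and -0.65 without the libraries with few genes and below 0 with edgeR and DESeq2.

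Of 52 other pathway genes tested, 1 was called, and it was higher, where 1.66% of all genes were called higher. Ltb, which encodes lymphotoxin beta, a TNF relative, had 0 in 6 of 7 WT-GFP samples, with 19.2 in the other, and 0 to 53.4 in APP-GFP (log2 fold change 2.83, adjusted p = 0.999). In the same comparison 2 of 20 microglial markers and 3 of 10 immediate early genes were called higher. The log2 fold change was above 0 for 20 of 20 and 10 of 10, with medians of 0.82 and 0.52 beside 0.09 for all genes. The summed microglial level was 22068 to 124403 in APP-GFP and 14819 to 54205 in WT-GFP samples, with overlap. The part of these genes' cells and response in the higher Tnfaip3 and Il1b was not tested.

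**Figure D4:**
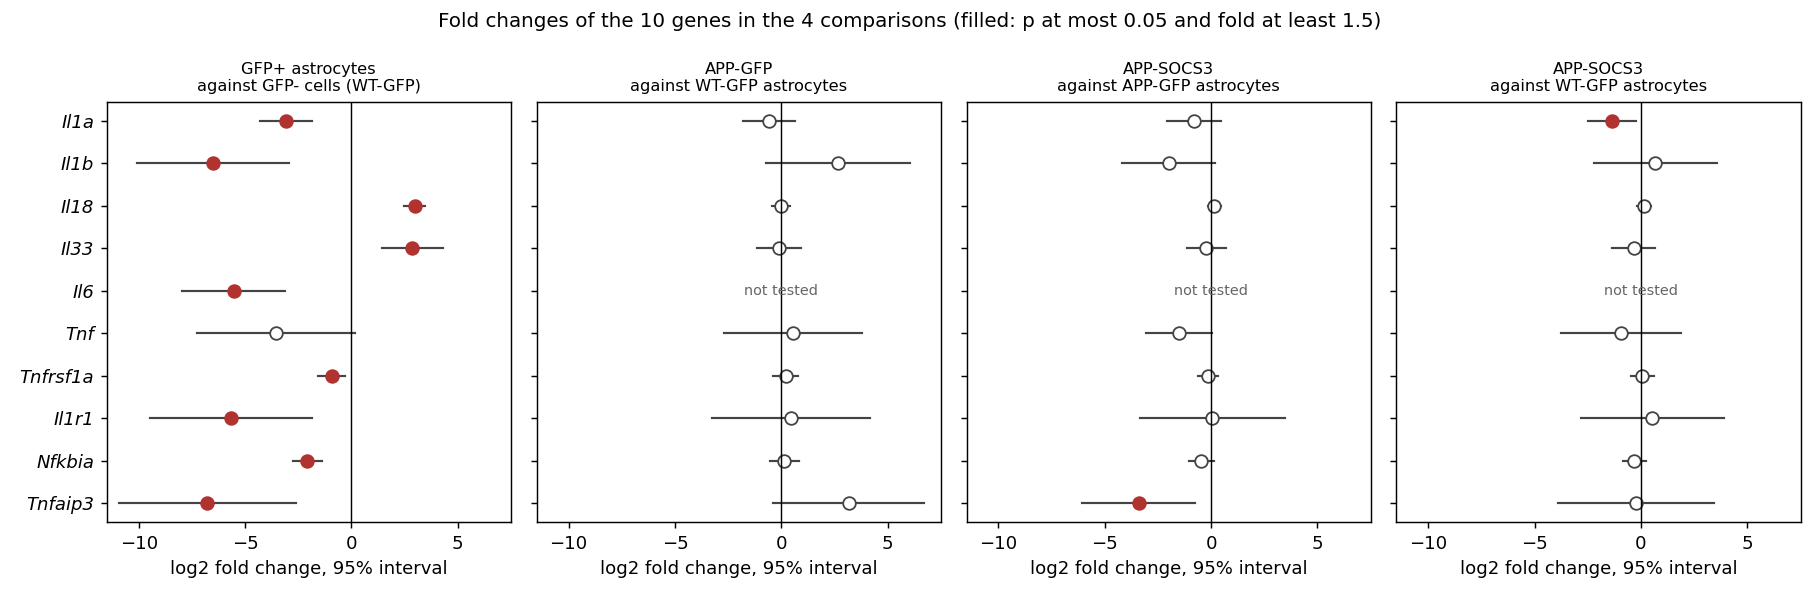
Log2 fold change with its 95% interval for the 10 genes in the 4 comparisons (limma, filled points where p is at most 0.05 and the fold at least 1.5). Against GFP- cells 9 of 10 are called, between GFP+ groups Tnfaip3 is called in APP-SOCS3 against APP-GFP and Il1a in APP-SOCS3 against WT-GFP, and the intervals of Il18, Tnfrsf1a and Nfkbia are narrow.

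The effect of SOCS3 was tested by comparing APP-SOCS3 to APP-GFP astrocytes, which share the APP-GFP samples with the comparison above. Socs3 itself had 19463 ± 10281 (SD, n = 5) against 1079 ± 493 (SD, n = 4), a log2 fold change of 4.20. Of the 9 genes tested, 1 was called, where 5.70% of 22844 genes were. This gene, Tnfaip3, fell in APP-SOCS3 to a mean of 51.3 ± 31.5 (SD, n = 5) from 355 ± 234 (SD, n = 4). The groups did not overlap (2.01% of all genes), since the highest APP-SOCS3 sample had 86.1 and the lowest APP-GFP sample 131. The log2 fold change was -3.41 (standard error 1.22, 95% interval -6.09 to -0.74, p = 0.017, adjusted p = 0.665, exact permutation p = 0.0159, the smallest that these numbers of samples allow). APP-SOCS3 replicate 3, at 0, weighed on the size. Without it the log2 fold change was -2.21, and Tnfaip3 was still called. With all 19 samples in one fit the call was lost.

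Tnf and Il1b were also lower on average without passing the main test. Tnf had 81.8 ± 41.4 (SD, n = 5) in APP-SOCS3 samples against 315 ± 273 (SD, n = 4) in APP-GFP, a log2 fold change of -1.51 (95% interval -3.08 to 0.06, p = 0.0574, exact permutation p = 0.127). Il1b had 39.4 ± 28 (SD, n = 5) and 250 ± 314 (SD, n = 4), a log2 fold change of -1.99 (95% interval -4.18 to 0.21, p = 0.0715, exact permutation p = 0.111). On whole reads edgeR called both, at -1.90 for Tnf and -2.66 for Il1b, and so did DESeq2. Single libraries moved these values. Without APP-GFP replicate 3, which held 708 of Il1b, its log2 fold change was -1.15, and without APP-GFP replicate 2, which held 646 of Tnf, that of Tnf was -0.98. In the other direction, limma called Il1b without APP-GFP replicate 1 (-2.81), Tnf without APP-GFP replicate 4 (-2.15) or APP-SOCS3 replicate 4 (-1.75), and Nfkbia without APP-GFP replicate 4 (-0.68).

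The remaining genes showed smaller differences. Nfkbia differed by -0.46 (95% interval -1.05 to 0.13), Il1a by -0.80 (-2.09 to 0.48), Il33 by -0.23 (-1.15 to 0.68), Tnfrsf1a by -0.15 (-0.63 to 0.33), Il18 by 0.16 (-0.16 to 0.47) and Il1r1 by 0.07 (-3.33 to 3.46). For Il18 and Tnfrsf1a the intervals leave out a 2-fold change in either direction.

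Of 52 other pathway genes tested, 7 fell in APP-SOCS3 and 0 rose, where 3.37% of all genes fell. Of these, 3 are NF-kappa B target genes. The chemokine gene Cxcl1 had 0 to 13.2 in APP-SOCS3 and 17.8 to 91.1 in APP-GFP (log2 fold change -4.35). Ccl2, which attracts monocytes, had 15.7 to 46.4 and 72.4 to 239.7 (-2.24). Icam1, an adhesion molecule for leukocytes, had 146 to 413 and 173 to 1794 (-1.58). Pycard, the inflammasome adaptor ASC, had 38.7 to 57.8 and 98.7 to 395 (-1.89). Sigirr, an inhibitory IL-1 receptor relative (-3.28), Myd88, the adaptor of IL-1 and Toll-like receptors (-0.80), and Nfkbiz (-1.25) also fell. The adjusted p of each of the 7 was at least 0.576.

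Markers of other cells moved the same way in this comparison. Of 20 microglial markers 19 fell, and their summed level was 10913 to 20823 in APP-SOCS3 and 22068 to 124403 in APP-GFP, without overlap. Cx3cr1 and Tmem119, defining microglial markers, had means of 275 and 701 in APP-SOCS3 and 820 and 3012 in APP-GFP. Of 18 endothelial markers 17 fell, and of 8 border macrophage markers 6 fell. Of 10 immediate early genes 10 fell, with summed levels of 22514 to 32634 in APP-SOCS3 and 54069 to 75986 in APP-GFP. Of 15 astrocyte markers 1 fell. The part of these cells and of the immediate early response in the lower Tnfaip3, Tnf and Il1b was not tested.

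**Figure D5:**
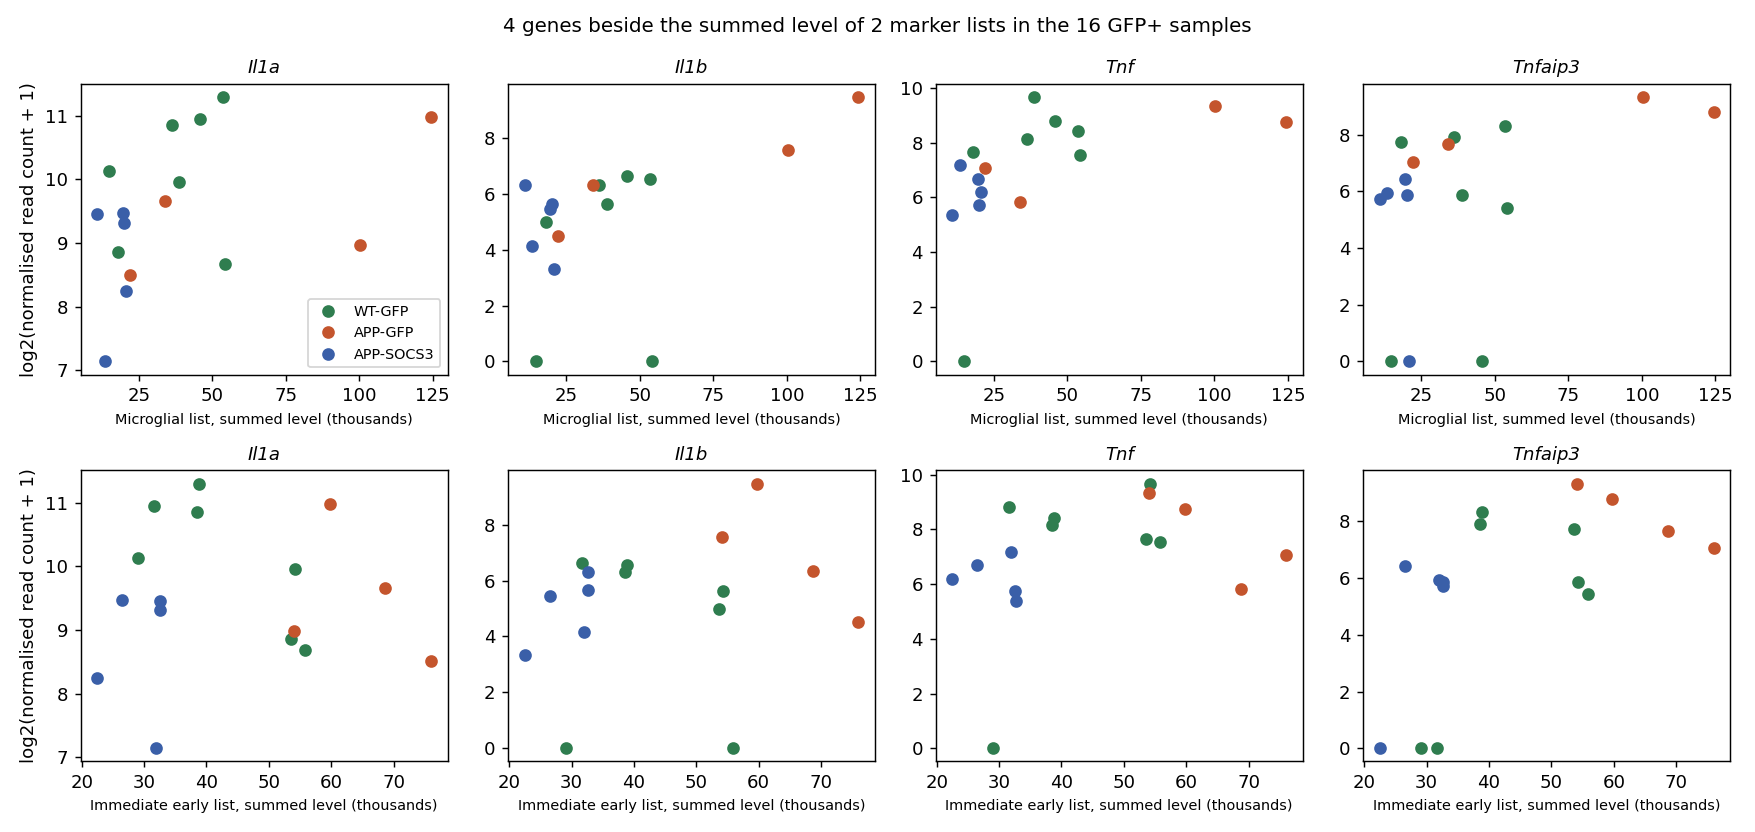
Level of Il1a, Il1b, Tnf and Tnfaip3 as log2(normalised read count + 1) in the 16 GFP+ samples against the summed level of 20 microglial markers (top) and of 10 immediate early genes (bottom), each sum divided by 1000. The 5 APP-SOCS3 samples lie at the low end of both sums, and the APP-GFP samples with microglial sums of 100367 and 124403 hold the highest Il1b and Tnfaip3. The highest Tnf (816) and Il1a (2515) are in WT-GFP samples with microglial sums of 38720 and 53614.

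APP-SOCS3 astrocytes were finally compared to WT-GFP astrocytes. Of 9 genes tested 1 was called, where 5.21% of 22958 genes were, and the groups overlapped for each of the 9 (0.566% of all genes did not). Il1a fell to a mean of 498 ± 260.2 (SD, n = 5) from 1331 ± 800.3 (SD, n = 7), a log2 fold change of -1.38 (standard error 0.53, p = 0.0212, adjusted p = 0.767, exact permutation p = 0.0505). The lowest 2 WT-GFP samples, at 409 and 461, lay within the APP-SOCS3 range. The call was lost without APP-SOCS3 replicate 3 (-1.26) or replicate 4 (-0.98), which held the lowest levels.

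Tnf had a log2 fold change of -0.95 (exact permutation p = 0.634) that depended on WT-GFP replicate 1. Without this sample at 0 it was -2.15 and called. Without the 3 WT-GFP libraries with few genes, 3 genes were called lower, Il1a (-1.51), Tnf (-2.25) and Tnfaip3 (-2.66), whereas Tnfaip3 differed by -0.24 and was not called with all samples. Tnfrsf1a (0.06, 95% interval -0.49 to 0.61), Il18 (0.15, -0.18 to 0.48) and Nfkbia (-0.31, -0.85 to 0.22) were not called. Among the other pathway genes, Sigirr (-3.84), Nfkbiz (-1.15) and Myd88 fell and Ltb rose (2.89), which makes 3 of 51 that fell beside 2.02% of all genes. In the same comparison 13 of 20 microglial and 15 of 18 endothelial markers fell, and 6 of 10 immediate early genes fell.

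Set side by side, the means of Tnfaip3 were 124 in WT-GFP, 355 in APP-GFP and 51.3 in APP-SOCS3, those of Il1b 49.9, 250 and 39.4, those of Tnf 325, 315 and 81.8, and those of Il1a 1331, 922 and 498. Those of Il18 were 8349, 8251 and 9068, and those of Tnfrsf1a 1056, 1178 and 1072. Only the drop of Tnfaip3 between APP-GFP and APP-SOCS3 and that of Il1a between WT-GFP and APP-SOCS3 passed the threshold among these.

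Finally, the genes whose log2 levels most resembled each of the 10 across the 16 GFP+ samples were listed, as a description. Il6 was too low for this. Over 10655 named genes, the closest 3 genes to each of the other 9 had Pearson correlations of 0.76 to 0.94. All points share the same libraries, including those with few genes. Il1a was nearest to its antisense neighbour Gm14023 (r = 0.84), Il1b to Plaur (0.91), Tnf to Cnn2 (0.94) and Olfml3 (0.93), and Tnfaip3 to Arhgef3 (0.91) and Myo1f (0.88). Olfml3 is on the list of microglial markers used above. Nfkbia was nearest to Gpx1 (0.93), Il33 to Cyp2j9 (0.91), Il18 to Fuom (0.83), Tnfrsf1a to Agpat3 (0.84) and Il1r1 to Armc3 (0.88).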

How the data were processed

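RNAseq of cells sorted by FACS from mouse hippocampus was used, in 19 samples grouped by their labels. Per the labels and methods, the authors amplified low-input RNA, mapped reads to mm10 with STAR 2.4.0, and counted them on FAST DB genes. What they deposited is a signal per gene, the reads divided by 1 DESeq2 size factor per sample, and whole reads were recovered for 100% of values (tolerance 0.01). On these reads edgeR called 8588 genes against GFP- cells, 659 between APP-GFP and WT-GFP, 1323 between the 2 APP groups and 1203 between APP-SOCS3 and WT-GFP. Whether counting used strand is not given in the sources used here. The methods count groups in mice and state that both hippocampi of a mouse were handled separately, but the labels tie no sample to a mouse, so p-values measure the spread between these samples. Positions are those of the authors on mm10, and all 10 overlapped GENCODE M21.

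The values were compared as log2(level + 1) with limma 3.58.1 (R 4.3.3, mean-variance trend) in the samples of both groups alone, for genes whose mean reached 10 in 1 of both groups. Fold changes on this scale are of means of log2 values and depend on the pseudocount in low genes. Where some samples are at 0 they can exceed the ratio of mean levels, as for Tnfaip3 against GFP- cells, whose GFP- mean was 31.8 times the WT-GFP mean beside a log2 fold change of -6.77. A call required p up to 0.05 without adjustment and a change of 1.5 times or more, and adjusted p-values are Benjamini-Hochberg over all genes tested. Exact permutation tests were 2-sided. The alternatives were pseudocounts of 0.1 and 10, no minimum level or one of 100, equal totals, all 19 samples in one fit, edgeR 4.0.16 and DESeq2 1.42.0 on recovered reads, a fold of 2, adjusted p, a replicate block and leaving out each sample. Leaving out libraries of under 20000 genes, and the fit without the block on the same samples, were added after seeing the data. Fits were tested on simulated counts with the same dispersion for every gene and large changes in genes with many reads alone. That test does not cover genes with many zeros. Genes named are the 10, Socs3, called genes of the pathway lists, the first 3 markers of cell type lists and the genes most alike. Nlrp3, Sod2, Il18bp, Il18rap, Il1rap, Il1rl1, Chuk, Otulin and Nfkbib are described also where not called, to show levels of receptors, partners and genes without a call, and Bco2, Tex12 and Gm14023 as overlapping genes. The genes and lists were chosen with earlier results of these data known, and the letters searched in promoters were chosen after these promoters were seen. Promoter sequences are from RefSeq.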

Additional observations from a re-analysis of the deposited data

Results flagged for a closer look

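In 3 of the 30 groups of 4 to 7 samples tested (each of the 10 genes in the 3 groups of GFP+ astrocytes), 1 sample stood far from the others by Dixon's test. Chance flags about 1 of 20 groups only where values are near normal, which levels mostly at 0 are not. Il33 was at 2887 in APP-SOCS3 replicate 2, against 947 in the next sample. Il6 was at 10.2 in the same library, where the other 4 APP-SOCS3 samples were at 0, so any level above 0 would have been flagged. Il6 was also at 16.6 in WT-GFP replicate 6, against 5.64 in the next sample and 0 in the other 5. None of the 3 values belongs to a called difference between GFP+ groups.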

How the results depend on the processing

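Against GFP- cells the direction of all 10 genes held under every alternative run. Between GFP+ groups 52 values reversed, all of genes that were not called and whose log2 fold change was at most 0.68 in size, and the cause was not tested. For APP-GFP against WT-GFP, Il1r1 became -0.011 with a pseudocount of 10, -0.42 with edgeR, -0.46 with DESeq2 and -0.65 without libraries of under 20000 genes. Tnf became -0.036 with edgeR, -0.044 with DESeq2 and -1.27 without those libraries, Il18 0.015 with edgeR and 0.18 without them, and Il33 0.061 without them. For APP-SOCS3 against APP-GFP, Il1r1 became -1.09 without those libraries and -0.43 in samples whose number occurs in both groups, with or without the replicate block. For APP-SOCS3 against WT-GFP, Tnfaip3 became 0.041 with a pseudocount of 0.1 and 0.47 in the samples of the block, where Tnfrsf1a became -0.13. There Il1b became -0.31 with edgeR, -0.34 with DESeq2 and -0.89 without those libraries, and Il1r1 -0.37, -0.36 and -1.74. Leaving out each sample in turn gave, for APP-GFP against WT-GFP, -0.41 to 1.61 for Il1r1, -0.63 to 1.2 for Tnf, -0.13 to 0.087 for Il18, -0.41 to 0.15 for Il33 and -0.053 to 0.37 for Nfkbia. It gave -1.09 to 0.95 for Il1r1 in APP-SOCS3 against APP-GFP and, against WT-GFP, -0.039 to 1.09 for Il1b, -0.092 to 1.4 for Il1r1, -0.063 to 0.20 for Tnfrsf1a and -1.08 to 0.96 for Tnfaip3.

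Of the 10 genes, the number called for APP-GFP against WT-GFP was 1 with a pseudocount of 10 (Tnfaip3), 2 with the replicate block (Il1b and Tnfaip3) and 1 without it in the same samples. For APP-SOCS3 against APP-GFP it was 2 with a pseudocount of 10, 3 with edgeR, 3 with DESeq2, 0 with all 19 samples in one fit and 0 at an adjusted p under 0.05. For APP-SOCS3 against WT-GFP it was 2 with DESeq2, 3 without libraries of under 20000 genes and 0 at an adjusted p. In these last 2 comparisons 1433 and 1310 genes had an unadjusted p under 0.05. Without each sample in turn 0 to 1, 1 to 3 and 0 to 2 genes of the 10 were called in these 3 comparisons.

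Over all genes, a minimum level of 100 left 6709 calls against GFP- cells, and in the GFP+ comparisons 123 (APP-GFP with WT-GFP), 650 (both APP groups) and 441 (APP-SOCS3 with WT-GFP), with fewer genes tested. APP-GFP against WT-GFP had 817 calls with no minimum and 991 with all 19 samples in one fit, beside 513. At an adjusted p, the GFP+ comparisons had 1, 1 and 7 calls. Leaving out each sample gave 393 to 677, 1052 to 1836 and 904 to 1435. The share of calls that were higher went from 21.6% to 38.7%, 74.5% to 62.5%, 40.9% to 30.1% and 61.2% to 36.7% with edgeR, in the order of comparisons above. With DESeq2 it was 35.4%, 38.7%, 34.2% and 29.2%, with a minimum level of 100 33.4%, 43.1%, 24.5% and 26.5%, and without libraries of under 20000 genes 24.3%, 43.5%, 31.9% and 24.9%, so that in APP-GFP and in APP-SOCS3 against WT-GFP the majority of calls turned from higher to lower under these 3. With edgeR the median gene against GFP- cells went from -1.31 to -0.37.

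The deviations of same-numbered samples were weakly correlated (-0.08 to 0.15). Still, APP-SOCS3 replicates 2, 3 and 4 were each closest to the same-numbered APP-GFP sample (0.088, 0.057 and 0.066). Low correlations do not settle whether samples were pairs. The labels give no pairs, and the numbers were not taken as such. With the replicate block, in samples whose number occurs in both groups, Tnf was called against GFP- cells (-5.28) and Tnfrsf1a was not (-0.80). Without the block in the same samples neither was called, so the call of Tnfrsf1a was lost with the smaller set of samples. Zeros and few replicates limit Il1r1, Il6, Il1b, Tnf and Tnfaip3, and the intervals around them are wide.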
